A study of Bos taurus with 18 samples.

Results

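The insulin-like growth factor (IGF) ligands IGF2 and IGF1 and the receptors IGF2R and IGF1R were followed through 18 bovine blastocysts of known pregnancy outcome. These 4 genes were taken by their Ensembl IDs from the 24616 gene IDs of the count table, namely ENSBTAG00000013066 for IGF2, ENSBTAG00000011082 for IGF1, ENSBTAG00000002402 for IGF2R and ENSBTAG00000021527 for IGF1R. The table does not pair IDs with names, so the names rest on the choice of these IDs (a RefSeq table of gene symbols matched 0 IDs). Each library is 1 part of a bisected blastocyst from a superovulated Holstein heifer, with trophectoderm and inner cell mass cells according to the labels. In the series design the embryos were recovered from the uterus on day 8 counted from expected ovulation, whereas the handling protocol speaks of day 7 of culture. The other part was transferred to a recipient heifer, and pregnancy was checked at days 30 and 60. In the pregnant group (n = 4) the recipient was pregnant at both checks, and in the not-pregnant group (n = 14) it was not pregnant at day 30. Libraries are named by the number in their title, such as pregnant 5 or not-pregnant 11. When the cut was uneven, the smaller or less intact part was sequenced, so libraries can differ in the amount of RNA. The labels name no donor cow, so embryos may share a donor. With 1 library per embryo, a p-value here reflects only how much these libraries vary, and differences of embryo, cut and library preparation are not separated in it. With bulk libraries, fewer cells of a type and less RNA per cell cannot be told apart.

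IGF1 and IGF2 are secreted peptides that act mainly through IGF1R, a receptor tyrosine kinase that signals through the PI3K-AKT and MAPK pathways to growth and survival. IGF2R has no kinase activity. It binds IGF2 and carries it to the lysosome for degradation, and it also sorts lysosomal enzymes. In mammals IGF2 is imprinted and expressed mainly from the paternal allele, and in cattle IGF2R is expressed mainly from the maternal allele. The early embryo meets IGFs from its own cells and from oviduct and uterine fluid, so a receptor can be engaged without a transcript of the ligand in the embryo. In mouse an antisense RNA, Airn, overlaps Igf2r. Whether counting used strand is not given in the sources here, so sense and antisense reads of a locus cannot be told apart.

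The pregnant libraries held 854791 to 2439701 counts each and the not-pregnant libraries 1611847 to 4689576, so that depth differs with outcome. In pregnant 1, 2 and 5 totals were 1026220, 1095874 and 854791, below every not-pregnant library. Levels are given below as CPM, the counts of a gene per 1000000 counts of its library. The edgeR fit and the log2 CPM values also use TMM scaling of the libraries, under which their order can differ. Transcript lengths were not used here, so CPM values compare libraries for the same gene and do not order the 4 genes by transcript number.

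Both receptor transcripts were present in all 18 libraries, whereas the ligand transcripts rested on at most 20 counts in any library. IGF2R had 75 to 746 counts per library and IGF1R 25 to 189. IGF2 had 0 to 16 counts, with at least 1 count in 16 libraries. IGF1 had 0 to 20 counts, with at least 1 count in 14 libraries. All 4 genes passed the filter on low counts, which asked for at least 4.80 CPM in 4 libraries. IGF2 reached that level in 3 pregnant and 2 not-pregnant libraries, and IGF1 in 2 and 4. The 4 not-pregnant libraries were enough for IGF1. IGF2 passed only with its pregnant libraries counted, the group where its mean was higher, so its value in the fit without a filter is also given below. Both receptors reached it in every library.

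**Figure D1:**
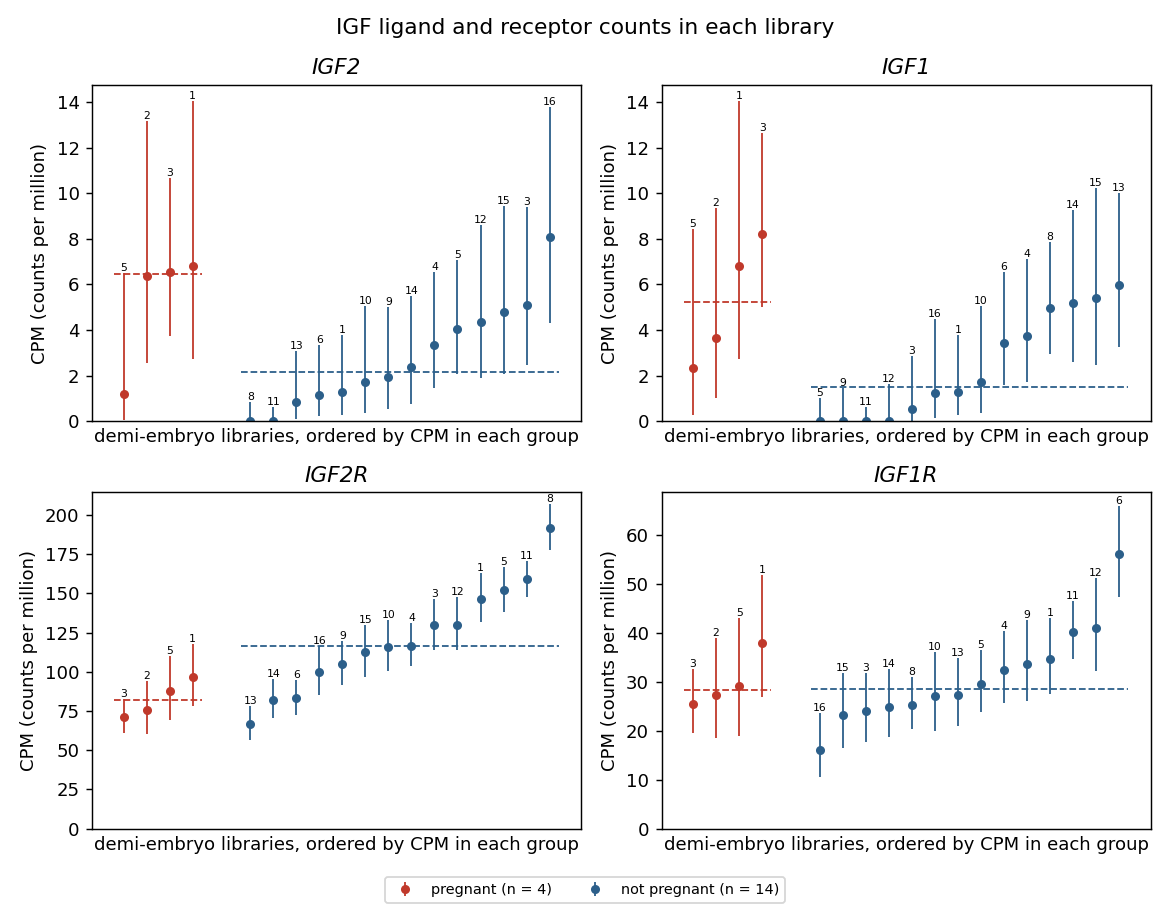
CPM (vertical axis, from 0) of IGF2, IGF1, IGF2R and IGF1R in each library (points, with exact 95% Poisson intervals of the count as bars, drawn up to 3 counts where the count is 0, and the title number above), ordered by CPM within the pregnant group (red, n = 4) and the not-pregnant group (blue, n = 14), with group medians as dashed lines. The IGF2 interval of pregnant 5 runs from 0.0296 to 6.52 CPM on a single count, and the 4 pregnant IGF2R points, 71.3 to 96.5 CPM, lie below the not-pregnant median of 116 CPM.

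IGF2 was found in all 4 pregnant libraries, but 1 of them held a single count. The levels were 6.82 CPM in pregnant 1 (7 counts), 6.39 CPM in pregnant 2 (7 counts), 6.56 CPM in pregnant 3 (16 counts) and 1.17 CPM in pregnant 5 (1 count). In the not-pregnant group IGF2 ran from 0 to 8.07 CPM with a median of 2.15 CPM. Thus 3 of the 4 pregnant libraries lay above the not-pregnant median, while pregnant 5 lay among the low not-pregnant libraries and not-pregnant 16, with 13 counts, exceeded all 4. The 95% Poisson interval of pregnant 5 reached from 0.0296 to 6.52 CPM. Intervals of this kind cover counting error only, since reads copied from 1 molecule are not independent. Not-pregnant 8 and not-pregnant 11 had no IGF2 count, which allows up to 0.831 and 0.640 CPM (3 counts of the total). They are the libraries with the highest totals, 3609466 and 4689576 counts.

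Mean IGF2 levels were 5.23 ± 2.72 CPM (SD, n = 4) in the pregnant group and 2.79 ± 2.28 CPM (SD, n = 14) in the not-pregnant group. The log2 fold change, pregnant against not pregnant, was 0.97 (SE 0.88, 95% interval -0.83 to 2.76), with an adjusted p of 0.599 in edgeR's quasi-likelihood test. The difference was thus within the spread between libraries, and the interval holds both a lower level and a more than 4-fold higher one. All 13060 tested IDs together had a median of 0.10, and medians differed with abundance. The filter keeps an ID of low mean mainly where a few libraries are high, so the low class is described from the fit without a filter. There the 11591 IDs with a mean under 4 CPM, to which both ligands belong, centred on 0.79 (median log2 fold change), with 71.0% above 0. The ligands lie near the upper limit of this class, with means over all libraries of 3.33 CPM for IGF2 and 3.03 CPM for IGF1. Medians fell with abundance, to 0.08 in the class of 4 to under 32 CPM, so 0.79 need not be the median at their level. IGF2 was at 0.84 (SE 0.89) in the fit without a filter. In limma voom IGF2 was at 1.86 (SE 0.96, adjusted p = 0.234).

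IGF1 was also found in all 4 pregnant libraries, and 4 of the 14 not-pregnant libraries had no count of it. The levels were 6.82 CPM in pregnant 1 (7 counts), 3.65 CPM in pregnant 2 (4 counts), 8.20 CPM in pregnant 3 (20 counts) and 2.34 CPM in pregnant 5 (2 counts). In the not-pregnant group IGF1 ran from 0 to 5.98 CPM with a median of 1.51 CPM. All 4 pregnant values lay above that median, which was also the case for 24.7% of all tested IDs, and the groups overlapped. IGF1 was at 0 in not-pregnant 5, 9, 11 and 12, which allows up to 1.01, 1.46, 0.640 and 1.64 CPM. At the other end, not-pregnant 8, 13, 14 and 15 held 18, 14, 11 and 9 counts and lay at 4.99, 5.98, 5.19 and 5.39 CPM.

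Mean IGF1 levels were 5.25 ± 2.72 CPM (SD, n = 4) and 2.39 ± 2.30 CPM (SD, n = 14) in the pregnant and not-pregnant groups. The log2 fold change was 1.20 (SE 0.95, 95% interval -0.73 to 3.13, adjusted p = 0.532 in edgeR), and 1.06 (SE 0.92) in the fit without a filter. It moved by more than 1.5 times in both directions with the settings. In limma voom it was 2.20 (SE 0.95, unadjusted p = 0.0276, adjusted p = 0.144). With the title number as a block in edgeR it was 3.43 (SE 1.61, unadjusted p = 0.0335, adjusted p = 0.219), although the labels do not say that those numbers pair embryos. Only the numbers 1, 3 and 5 occur in both groups, so the group difference in that fit comes from their libraries alone. Leaving out pregnant 3, the deepest pregnant library, took IGF1 to 0.47 (SE 1.19, adjusted p = 0.874 in edgeR without the block), and IGF2 to 0.47 (SE 1.07, adjusted p = 0.858). The same library held 20 of the 33 IGF1 counts and 16 of the 31 IGF2 counts of the pregnant group. Its total was 2439701 of the 5416586 counts of that group over all IDs.

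The spread of the ligands between libraries is given against counting error and beside the trend over all tested IDs. In the not-pregnant group the variance of the counts, given the library totals, was 5.67 times the counting variance for IGF1 and 5.09 times for IGF2, and in the 4 pregnant libraries 1.64 times and 1.23 times. Separate embryos usually exceed counting variance, so these values are a description. The biological coefficient of variation in edgeR is the spread between libraries once counting error is taken out, so it holds differences of cut and library preparation as well as of embryo. It was 107% for IGF1, against 100.1% at its abundance on the trend over all tested IDs. For IGF2 it was 95.2% against 99.2%. The fit moves each of these values toward that trend, so their closeness to it does not show how the spread of the ligands compares with other IDs.

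No relation between the ligands was detected in the not-pregnant group, and none was tested in the pregnant group. All 4 pregnant and 9 of the 14 not-pregnant libraries held both, 3 not-pregnant libraries held IGF2 alone, not-pregnant 8 held IGF1 alone, and not-pregnant 11 held neither. Across the 14 not-pregnant libraries the log2 levels of IGF1 and IGF2 had a Pearson r of -0.12 (permutation p = 0.688) and a Spearman rho of -0.18 (permutation p = 0.535). With the 2 libraries farthest from the IGF2 median left out, r was -0.25. At an equal depth of 854791 counts, the lowest total, 8.77 of the 14 not-pregnant libraries would be expected to show IGF1 and 10.7 to show IGF2. At full depth 10 and 12 of them did so.

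**Figure D2:**
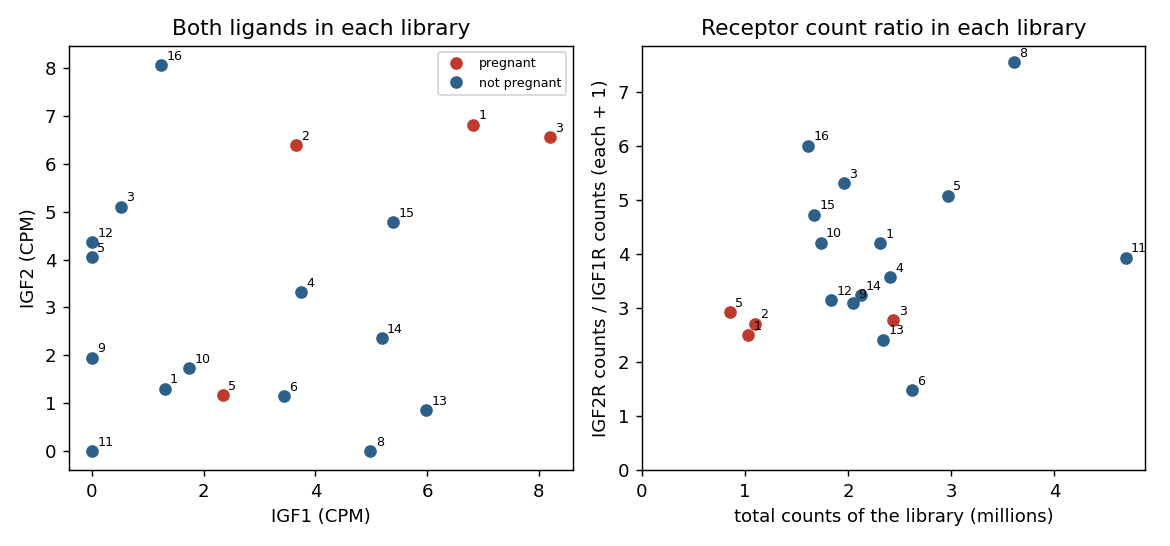
Left, IGF2 against IGF1 (both in CPM) in each library. Right, IGF2R counts divided by IGF1R counts (1 added to each) against the total counts of the library in units of 1000000, with pregnant libraries in red, not-pregnant libraries in blue and title numbers beside the points. No relation between the ligands was detected over the not-pregnant libraries. The 4 pregnant receptor ratios, 2.50 to 2.92, sit close together within the not-pregnant range of 1.48 to 7.54.

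IGF2R, the receptor that clears IGF2, was lower in all 4 pregnant libraries than the not-pregnant median, but its difference did not pass the test. It was at 96.5 CPM in pregnant 1 (99 counts), 75.7 CPM in pregnant 2 (83 counts), 71.3 CPM in pregnant 3 (174 counts) and 87.7 CPM in pregnant 5 (75 counts). In the not-pregnant group it ran from 66.6 to 192 CPM with a median of 116 CPM. Of the 14 not-pregnant libraries, 11 lay above all pregnant ones, and not-pregnant 6, 13 and 14, at 83.3, 66.6 and 82.0 CPM, lay among or below them. In log2 CPM with TMM scaling, 11 lay above and 0 below all pregnant ones. A position of all 4 pregnant values below the not-pregnant median was found in 13.1% of all tested IDs.

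Mean IGF2R levels were 82.8 ± 11.4 CPM (SD, n = 4) in the pregnant group and 121 ± 34.0 CPM (SD, n = 14) in the not-pregnant group. The log2 fold change was -0.57 (SE 0.22, 95% interval -1.01 to -0.14). Its unadjusted p was 0.0114 and its adjusted p 0.166 in edgeR, and an exact two-sided permutation of log2 CPM over the 3060 choices of 4 of 18 libraries gave an unadjusted p of 0.0147. An unadjusted p under 0.05 was reached by 16.8% of all tested IDs, so such a p is common in this comparison. In this fit the 3900 tested IDs with a mean of 32 CPM or more, to which IGF2R belongs, centred on -0.19 (median log2 fold change), with 28.3% above 0. In the fit without a filter they centred on -0.34, with 15.8% above 0, and IGF2R was at -0.73 (SE 0.23). With log2 total counts as a covariate the IGF2R value was -0.22 (SE 0.25, adjusted p = 0.936 in edgeR). Without pregnant 3 it was -0.81 (SE 0.25, adjusted p = 0.116). Pregnant 3 had the lowest IGF2R level of the pregnant group in CPM. In log2 CPM with TMM scaling it had the highest, 6.69 against 6.11 to 6.35.

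Within the not-pregnant group IGF2R varied 2.88-fold between the lowest and the highest library, against 1.35-fold in the pregnant group. Its count variance was 26.4 times the counting variance in the not-pregnant group and 2.23 times in the pregnant group, whose smaller counts make counting error a larger part. Not-pregnant 8 and 11, the deepest libraries and those without an IGF2 count, had the highest IGF2R levels, 192 and 159 CPM. With log2 total counts, IGF2R had r = 0.48 (permutation p = 0.0815) and rho = 0.24 (permutation p = 0.418) over the 14 libraries. Without the 2 libraries farthest from the median total, r was -0.11, so this relation rests on those libraries.

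IGF1R, the signalling receptor of both ligands, had almost equal medians in the outcome groups. It was at 38.0 CPM in pregnant 1 (39 counts), 27.4 CPM in pregnant 2 (30 counts), 25.4 CPM in pregnant 3 (62 counts) and 29.2 CPM in pregnant 5 (25 counts). In the not-pregnant group it ran from 16.1 CPM in not-pregnant 16 to 56.1 CPM in not-pregnant 6, with medians of 28.5 CPM there and 28.3 CPM in the pregnant group. The pregnant values lay on both sides of the not-pregnant median, 2 above and 2 below. Pregnant 3 was lowest of the pregnant group in CPM but highest in log2 CPM with TMM scaling (5.23, against 4.67 to 5.03).

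Mean IGF1R levels were 30.0 ± 5.55 CPM (SD, n = 4) and 31.1 ± 9.88 CPM (SD, n = 14) in the pregnant and not-pregnant groups. The log2 fold change was -0.08 (SE 0.26, 95% interval -0.61 to 0.45, adjusted p = 0.895 in edgeR). The interval leaves room for differences of up to about these sizes in either direction. The 7396 tested IDs of 4 to under 32 CPM, to which IGF1R belongs, had a median of 0.23 in the same fit. In the fit without a filter the median of this class was 0.08, and IGF1R was at -0.24 (SE 0.29). IGF1R, with a mean of 30.9 CPM over all libraries, lies near the upper limit of this class. The class above it centred on -0.34 in the fit without a filter, so the class median need not be that of IDs at the IGF1R level. Biological coefficients of variation were 31.2% for IGF1R and 27.9% for IGF2R, against 37.3% and 31.2% on the trend for their abundance. Both values thus lay below the trend for IDs counted as often. The fit moves them toward that trend, and no interval was computed for them, so whether the receptors vary less than other IDs was not tested.

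**Figure D3:**
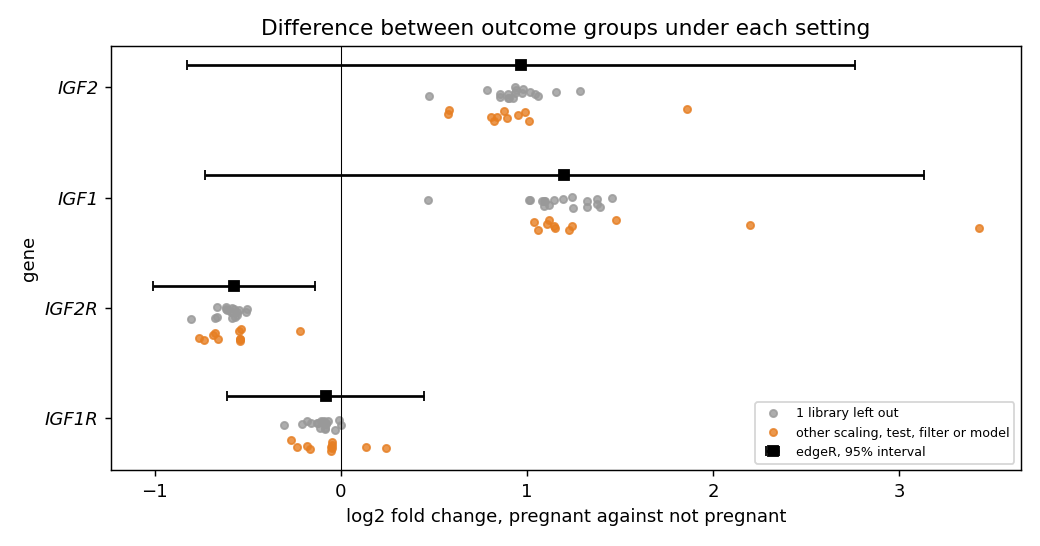
Log2 fold change, pregnant against not pregnant (horizontal axis), for each gene. Black squares with bars are edgeR values with 95% intervals, grey points leave out 1 library each, and orange points use another scaling, test, filter or model. IGF2R stays below 0 in all of them (-0.81 to -0.22), while IGF1R lies on both sides of 0 (-0.30 to 0.24).

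Of the 4 genes, 0 passed an adjusted p of 0.05 in edgeR, where 0.773% of the 13060 tested IDs did so, 0.345% as higher and 0.429% as lower in the pregnant group. At an unadjusted p under 0.05 there was 1, IGF2R. In DESeq2 and in limma voom 0 of the 4 passed as well, with 1 and 2 at an unadjusted p under 0.05. For none of the 4 did the groups lie apart without overlap, a pattern seen in 1.58% of tested IDs.

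In the count ratio of the receptors within a library the scaling factor of the library cancels. The ratio still sets an ID of 32 CPM or more against one of 4 to under 32 CPM. The median log2 fold changes of these classes, -0.19 and 0.23 in the filtered fit, differ in the same direction as the ratio, although IGF1R, at a mean of 30.9 CPM, lies near the limit between them. The part of this trend with abundance in the ratio was not tested. IGF2R counts divided by IGF1R counts gave 2.50 in pregnant 1, 2.71 in pregnant 2, 2.78 in pregnant 3 and 2.92 in pregnant 5. The not-pregnant libraries ran from 1.48 in not-pregnant 6 to 7.54 in not-pregnant 8, with a median of 4.06. Of these 14 libraries, 12 lay above all 4 pregnant ones and 2, not-pregnant 6 and 13, lay below. On the log2 scale the means were 1.45 ± 0.09 (SD, n = 4) and 1.95 ± 0.59 (SD, n = 14), a difference of -0.50 that did not pass an exact two-sided permutation test (p = 0.117, adjusted over 2 ratios 0.117). Of 18 runs with 1 library left out, 1 passed, the run without not-pregnant 6, which had the highest IGF1R level of all libraries. There the difference was -0.61 (exact permutation p = 0.0189, adjusted over 2 ratios 0.0378). That p was not adjusted over the 18 runs, and in the others the adjusted p was 0.0853 to 0.204. Not-pregnant 6 has the lowest ratio, so leaving it out widens the difference in any case. No relation of the ratio to log2 total counts was detected in the not-pregnant group, with r = 0.02 (permutation p = 0.933) and rho = -0.15 (permutation p = 0.618). Without the 2 libraries farthest from the median total r was -0.42 (permutation p = 0.171). Pregnant 1, 2 and 5 have lower totals than every library of that group, so these values do not cover their depth. With log2 total counts as a covariate the difference was -0.48 (exact permutation p = 0.145).

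The count ratio of IGF2R to its ligand IGF2 differed by -1.81 on the log2 scale, pregnant minus not pregnant, with means of 3.91 ± 0.90 (SD, n = 4) and 5.72 ± 1.75 (SD, n = 14). It did not pass after adjustment (exact two-sided permutation p = 0.0480, adjusted over 2 ratios 0.0961). The ratio was 12.5 in pregnant 1, 10.5 in pregnant 2, 10.3 in pregnant 3 and 38.0 in pregnant 5, within or just below the not-pregnant range of 11.6 to 747. The upper end of that range comes from not-pregnant 8 and 11, where IGF2 was at 0 and the added count of 1 sets the ratio. With log2 total counts as a covariate the difference was -0.05 (exact permutation p = 0.954). The totals of pregnant 1, 2 and 5 lie below every not-pregnant library, so depth and outcome cannot be told apart in that fit.

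Of 11 relations computed within the not-pregnant group, 1 passed adjustment, and it was one with depth. IGF2 was lower in libraries with more counts, with r = -0.78 (permutation p = 0.000800, adjusted 0.00880) and rho = -0.68 (permutation p = 0.00889, adjusted 0.0978). Without the 2 libraries farthest from the median total r was -0.49 (permutation p = 0.104), so the relation rests largely on those libraries. IGF2 and IGF1R had r = -0.53 (permutation p = 0.0488, adjusted 0.268) and rho = -0.55 (permutation p = 0.0462, adjusted 0.231), and r was -0.72 without the 2 libraries farthest from the IGF2 median. IGF2R and IGF1R had r = -0.25 (permutation p = 0.386) and rho = -0.26 (permutation p = 0.374), so that embryos with more of one receptor transcript did not have detectably more of the other.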

How the data were processed

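The authors deposited raw counts, as whole numbers for each Ensembl gene ID, with 1 column per demi-embryo and 0 columns of other samples. The submitters' processing notes name edgeR and the builds bosTau8 and UMD3.1, with no role given. Per the labels' protocols, low-input NuGEN Ovation SoLo libraries were sequenced as single 75 bp reads. The aligner, counter, strand setting and duplicate handling are not given in the sources here.

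All 13060 IDs passing filterByExpr (at least 10 counts at the median total in 4 libraries, 15 in total) were fitted in edgeR 4.0.16 (R 4.3.3) with TMM scaling, robust glmQLFit and glmQLFTest, and Benjamini-Hochberg adjustment over all of them. SEs and 95% intervals follow from the F statistic. Log2 CPM used a prior count of 2. The fit was tested on simulated data. Ratios used 1 added count and exact permutation over 3060 choices, and correlations 100000 permutations.

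The 4 genes, lists and tests were chosen with earlier results of these data known. The rule named the 4 genes in every case, and pathway and marker genes only by symbol. As 0 IDs matched a name, the pathway and marker lists and the search for genes of like pattern were not used, and the labelled cell types were not checked against markers. The RefSeq table is of another build, so no coordinates are given.

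Not-pregnant 1 and 14, whose descriptions begin with the same number, had a chi-square per degree of freedom of 24.0 between their counts (lowest of 97 pairs within groups 4.00), so both were kept. The scaling by total counts, the 20 IDs left out, the covariate for the ratios, the correlations and the abundance classes were chosen after seeing the data.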

Additional observations from a re-analysis of the deposited data

Results flagged for a closer look

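In pregnant 5, IGF2 stood at 1.17 CPM, apart from 6.39 to 6.82 CPM in the other 3 pregnant libraries, and this gap took up 0.923 of the whole range of the 4 values. The log2 ratio of IGF2R to IGF2 counts in the same library, 5.25, was set apart from the other 3 (3.36 to 3.64) in the same way. Both values rest on the same single IGF2 count, and pregnant 5 has the lowest total of all libraries. On the log2 CPM scale its IGF2 value was not set apart (gap of 0.733 of the range, critical value 0.829). Chance sets a library apart in about 1 of 20 groups, and 10 overlapping measures were looked at in the pregnant group. The part of the low depth in these values was not tested.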

How the results depend on the processing

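IGF2, IGF1, IGF2R and IGF1R had 0 calls under every alternative run in edgeR, DESeq2 and limma voom. The lowest adjusted p was 0.0587, for IGF2R with CPM above 1 in at least 4 libraries. Leaving out each library gave log2 fold changes of 0.47 to 1.29 for IGF2, 0.47 to 1.46 for IGF1, -0.81 to -0.50 for IGF2R and -0.30 to 0.0031 for IGF1R, above 0 only without not-pregnant 6. The other alternatives gave 0.58 to 1.86, 1.04 to 3.43, -0.76 to -0.22 and -0.27 to 0.24. IGF1R was above 0 with the replicate block (0.13) and with log2 total counts as covariate (0.24). The replicate block compares only libraries whose title numbers occur in both groups. The exact permutation of log2 CPM gave IGF2R -0.54 at an unadjusted p of 0.0147. Leaving out each library gave -0.61 to -0.43 for the IGF2R to IGF1R ratio and -2.26 to -1.52 for the IGF2R to IGF2 ratio.

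Over all IDs, 45 were called higher and 56 lower in the pregnant group. TMM with not-pregnant 15 as reference gave 63 and 189, DESeq2 149 and 182, limma voom 933 and 153, no filter 282 and 341, CPM above 1 in at least 4 libraries 85 and 321, log2 total counts as covariate 0 and 1 (842 at an unadjusted p under 0.05), scaling by total counts alone 35 and 8, and the 20 most abundant IDs left out 61 and 214. With 1 library left out at a time, 0 to 92 IDs were higher and 0 to 272 lower. Without pregnant 1 there were 0 and 0 (unadjusted p under 0.05 in 1723). Without pregnant 2, 3 and 5 there were 4 and 9, 1 and 2, and 2 and 12. The highest counts came without not-pregnant 10 (78 and 272), 11 (89 and 153), 12 (44 and 130), 13 (73 and 108) and 16 (92 and 267). Without not-pregnant 1, 3, 4, 5, 6, 8 or 15 there were 26 to 29 higher and 36 to 50 lower. The cause was not tested.

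The title numbers 1, 3 and 5 occur in both groups, and the labels do not say that they pair embryos. Deviations of same-numbered libraries had correlations of -0.04, 0.07 and -0.03. Such values cannot exclude a shared donor or batch with a small effect. In the fit with the replicate block only the libraries numbered 1, 3 and 5 inform the group difference. That fit gave 343 and 248 calls, with IGF2 at 0.58, IGF1 at 3.43 and IGF2R at -0.69, none of them called. At these totals, 3 counts correspond to 0.640 to 3.51 CPM. A ligand at or below that level can be missed in a single library.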
